A study of Mus musculus with 12 samples.

Results

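The genotype difference in undifferentiated mouse embryonic fibroblasts was described as the log2 array signal of the D1D2KO samples minus that of the WT samples, for every gene read by a probe set that names 1 gene only. Of 19938 such genes, 751 on the X and Y chromosomes and 22 without a known chromosome were left out, and 19165 remained. The cells came from embryos at embryonic day 14 of the strain given as C57BL6 and were grown in DMEM with 10% FBS. D1D2KO cells lack both diacylglycerol acyltransferases, DGAT1 and DGAT2, and WT cells carry both genes. The difference was taken between the 3 D1D2KO and the 3 WT undifferentiated samples of a series of 12. The other 6 samples were the same genotypes after adipogenic differentiation, which a hormone and drug cocktail induced. They were used to estimate the spread and for a closing comparison. The series calls its samples biological replicates but names no embryo, culture or pooling, and every p-value rests on the spread among them, which may be technical. In the bulk RNA measured here, fewer cells of a type and less RNA per cell cannot be told apart.

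DGAT1 and DGAT2 are unrelated endoplasmic reticulum enzymes that join a fatty acid to diacylglycerol, the last step of triacylglycerol synthesis. Fibroblasts from mouse embryos make little triacylglycerol until an adipogenic cocktail turns on the adipocyte programme, after which lipid droplets fill the cells. Such cultures are mixed, and can hold mesenchymal cells with smooth muscle, adipogenic or skeletal features besides fibroblasts.

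The labelled cell type was checked first. None of 19 fibroblast markers was called, and their mean log2 signal was 10.47 to 10.49 in the WT and 10.52 to 10.56 in the D1D2KO samples. Correlations across genes were 0.9964 to 0.9971 among WT samples, 0.9967 to 0.9974 among D1D2KO samples and 0.9899 to 0.9955 between them. The genotypes lay apart on the main principal component, which held 61.8% of the variance of the 6 samples. WT replicate 3, at -7.66, lay nearest to the D1D2KO samples, which scored 10.48 to 20.1. Genes of the Y chromosome, which are not among the genes described, differed as well. Eif2s3y read 7.47 to 7.80 in the WT samples and 2.64 to 2.68 in the D1D2KO samples, with Uty and Kdm5d lower in the same way. Xist, transcribed from an inactive X chromosome, read 10.16 to 10.22 in WT and 10.70 to 10.78 in D1D2KO. Genotype and the sex makeup of the cultures cannot be told apart in any comparison below.

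The targeted genes were lower in the D1D2KO samples, by unequal amounts. Dgat1 (probe set 10429926, chromosome 15) read 6.94, 6.93 and 6.98 in WT and 5.56, 5.60 and 5.66 in D1D2KO. Dgat2 (probe set 10565775, chromosome 7) read 5.94, 5.98 and 5.95 in WT and 5.44, 5.50 and 5.51 in D1D2KO. In both cases the D1D2KO samples all lay below the WT samples, and the samples of a group lay close together. The Dgat1 difference was 1.34 log2 units downward (SE 0.11, adjusted p = 6.98e-07). The Dgat2 difference, -0.47 (SE 0.13, adjusted p = 0.0345), passed with all 6 samples but not without any 1 of them (adjusted p = 0.0530 to 0.126). The sources used here do not say whether either probe set lies in deleted sequence. These values therefore do not measure transcript left.

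Across all genes the large differences were nearly all losses in D1D2KO. At an adjusted p under 0.05, 1540 genes (8.04%) were called, 855 higher (4.46%) and 685 lower (3.57%) in D1D2KO. Of these, 55 (0.287%) differed at least 2-fold, 51 lower and 4 higher. The groups did not overlap in 1528 of the 1540 called genes and in 39.3% of all genes. The median size over the called genes was 0.39 log2 units. Most calls were small and moved with single samples: the count was 325 without WT replicate 2, 376 without D1D2KO replicate 3, 542 without WT replicate 1, 566 without D1D2KO replicate 1, 991 without D1D2KO replicate 2 and 1804 without WT replicate 3. The genes called with all samples and also without any 1 of the 6 numbered 278 (1.45%), of which 212 were lower (1.11%) and 66 higher (0.344%). They included 54 of the 55 genes that differed at least 2-fold, the exception being the olfactory receptor gene Olfr767 (1.24), whose call ended without WT replicate 1, WT replicate 2 or D1D2KO replicate 3 (adjusted p up to 0.114).

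The many small rises lay mostly among dim genes. Of the 855 genes higher in D1D2KO, 83.0% had a mean signal below the median of all genes (6.08), and 78.1% of the 685 lower genes lay above it. Predicted and olfactory receptor genes made up 18.1% of the higher genes, 1.31% of the lower ones and 12.2% of all. When all genes were put in 4 groups of equal size by signal, the median difference was 0.13 in the dimmest group and -0.10 in the brightest. The spread of values within an array was 2.246 to 2.261 (SD) in WT and 2.193 to 2.213 in D1D2KO. The part of this narrower range in the small differences was not tested. The share of calls that were higher was 55.5% with the deposited values, 33.0% after centring each array on its median, 44.1% after quantile normalization and 31.4% after cyclic loess normalization, and 48.9% with a trended variance prior. Among the 278 genes, 277 were called under both normalizations as well, 212 of them lower.

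**Figure D1:**
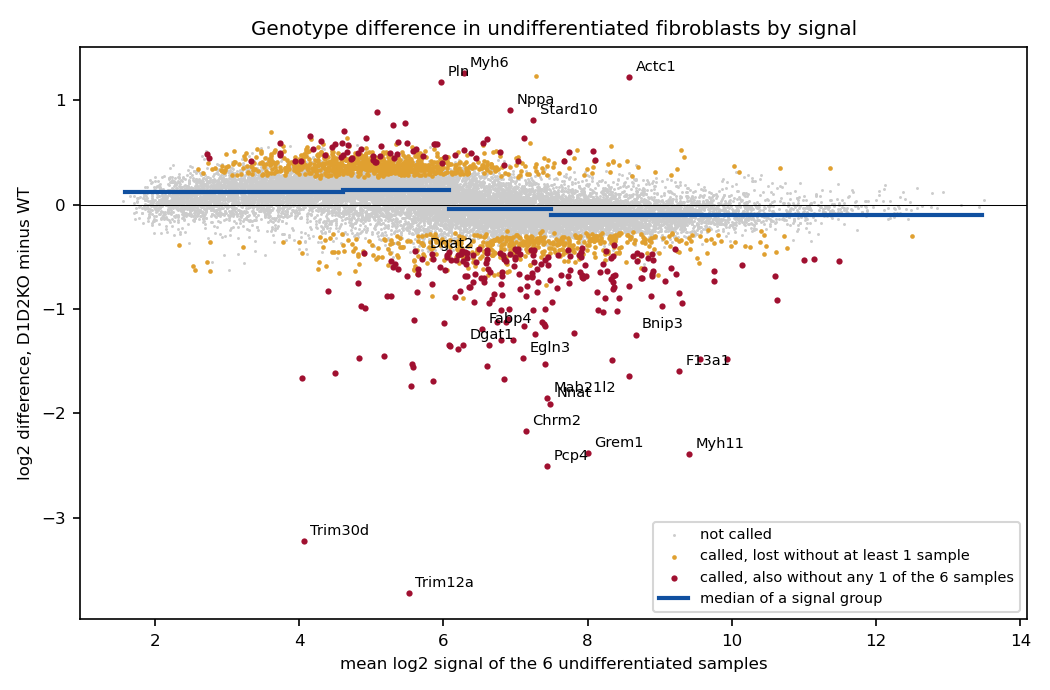
Log2 difference, D1D2KO minus WT, against the mean log2 signal of the 6 undifferentiated samples, 1 point per gene, with a bar at the median of each of 4 signal groups. The 51 genes lower by at least 2-fold spread over most of the signal range, and the small rises crowd below the median signal of 6.08.

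The largest differences were those of a pair of tripartite motif genes on chromosome 7. Trim12a read 7.34, 7.38 and 7.43 in WT and 3.71, 3.89 and 3.40 in D1D2KO, a difference of -3.72 (SE 0.12, adjusted p = 3.14e-12). Trim30d read 5.66, 5.72 and 5.64 in WT and 2.42, 2.52 and 2.41 in D1D2KO, a difference of -3.22 (SE 0.13, adjusted p = 5.57e-11). In D1D2KO both lay among dim signals that cannot be told from background, so the size of these falls is uncertain. Of their close relatives, Trim30a differed by -0.28 (adjusted p = 0.195), Trim12c by 0.35 (adjusted p = 0.0840) and Trim34a by 0.38 (adjusted p = 0.0604), and none of these 3 was called. Probe sets of such similar genes can respond to one another, which makes each of these values uncertain.

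The next largest falls were in genes of varied function. Pcp4, a small regulator of calmodulin, read 8.46, 8.80 and 8.81 in WT and 6.32, 6.09 and 6.14 in D1D2KO (-2.51, SE 0.13). Grem1, a secreted antagonist of bone morphogenetic proteins, read 9.21, 9.23 and 9.15 in WT and 6.89, 6.84 and 6.71 in D1D2KO (-2.38, SE 0.15). Nnat, the imprinted gene of neuronatin, read 8.57, 8.51 and 8.23 in WT and 6.53, 6.58 and 6.47 in D1D2KO (-1.91, SE 0.11). In each of these 3 genes the gap between the groups was several times the spread within them, with adjusted p = 3.33e-09, 3.73e-08 and 1.31e-08 in that order. The developmental gene Mab21l2 (-1.85), the pericyte marker Rgs5 (-1.69), the glutathione transferase Gstm6 (-1.61) and F13a1 (-1.59), which encodes a subunit of coagulation factor XIII, followed. Ndufa4l2, a mitochondrial protein known to be induced by low oxygen, was lower by a similar amount (-1.67, SE 0.16). Each of them was called also without any 1 of the 6 samples.

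Chrm2 and a microRNA gene inside it were lower together. Chrm2 encodes the M2 muscarinic acetylcholine receptor of smooth and cardiac muscle. It read 8.28, 8.18 and 8.23 in WT and 6.03, 6.04 and 6.12 in D1D2KO, a difference of -2.17 (SE 0.08, adjusted p = 3.72e-11). Mir490 read 5.24, 4.89 and 4.50 in WT and 3.30, 3.21 and 3.15 in D1D2KO, a difference of -1.66 (SE 0.16, adjusted p = 6.22e-06). The WT samples were more scattered for Mir490 than for its host gene, and the groups overlapped in neither. A probe set of this array reads the microRNA's gene region and cannot tell the mature product from its precursor or the host transcript. The mature products are shown because their seeds, bases 2 to 8 in capitals, define which transcripts they can pair with (RefSeq, GRCm38.p6, chromosome 6, plus strand).
mmu-miR-490-5p: cCAUGGAUcuccaggugggu
mmu-miR-490-3p: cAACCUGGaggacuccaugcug
The seeds of the arms differ.

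Smooth muscle contractile genes had the largest share of lower genes among the 47 lists. Of 19 measured genes 15 were lower (78.9%, against 3.57% of all genes), 1 was higher and 3 were not called, and the median difference was -0.73 against 0.02 over all genes. The list was drawn up with these differences known, so its direction is not independent evidence, and the same holds for the cardiac and hypoxia lists below. The 11 lower genes that were called also without any 1 sample covered the myosin, actin and regulatory parts of the apparatus. Myh11, the smooth muscle myosin heavy chain, read 10.71, 10.65 and 10.46 in WT and 8.17, 8.41 and 8.08 in D1D2KO, a difference of -2.39 (SE 0.09, adjusted p = 5.39e-11). Kcnmb1, a subunit of the calcium-activated potassium channel of smooth muscle, read 6.52, 6.53 and 6.20 in WT and 4.93, 4.75 and 4.35 in D1D2KO (-1.74, SE 0.16, adjusted p = 4.84e-06). Cnn1, which encodes calponin, read 9.36, 9.50 and 9.30 in WT and 7.82, 7.90 and 7.53 in D1D2KO (-1.64, SE 0.12, adjusted p = 2.02e-07). WT replicate 3 was the lowest WT sample in all 3 genes and D1D2KO replicate 3 the lowest D1D2KO sample, and the groups stayed more than a log2 unit apart.

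Other members followed in a graded order of size. Synpo2, an actin-binding protein, differed by -1.55, the intermediate filament gene Des by -1.48, the enteric actin Actg2 by -1.48, the transcriptional coactivator Myocd by -1.11, the regulatory light chain Myl9 by -0.91, the myosin kinase Mylk by -0.90 and transgelin, Tagln, by -0.52. Acta2, smooth muscle alpha-actin and a usual marker of myofibroblasts, read 12.59, 12.69 and 12.65 in WT and 12.38, 12.40 and 12.25 in D1D2KO. Its difference was small (-0.30, SE 0.08, adjusted p = 0.0266), and the call ended without replicate 1 or 2 of WT or replicate 1 or 3 of D1D2KO (adjusted p up to 0.137). The tropomyosin Tpm1 (-0.28, adjusted p = 0.0754), the integrin Itga8 (-0.17, adjusted p = 0.189) and caldesmon, Cald1 (-0.12, adjusted p = 0.299), were not called. The exception in direction was Pln, which encodes phospholamban, the inhibitor of the calcium pump in cardiac and smooth muscle. It read 5.16, 5.75 and 5.23 in WT and 6.50, 6.71 and 6.47 in D1D2KO, a rise of 1.18 (SE 0.17, adjusted p = 4.90e-04) with WT replicate 2 the highest of its group.

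A CArG box, the site bound by serum response factor with myocardin at many smooth muscle genes, was searched on both strands of the promoter window from 250 bases before to 50 after the start. It was found in 1 of 16 promoters of 15 genes of this list (6.25%) and in 1.63% of 32851 mouse promoters. The promoter that holds it, that of Myl9, is shown with the box in capitals (RefSeq, GRCm38.p6).
Myl9 promoter, chr2:156775214-156775513, plus strand: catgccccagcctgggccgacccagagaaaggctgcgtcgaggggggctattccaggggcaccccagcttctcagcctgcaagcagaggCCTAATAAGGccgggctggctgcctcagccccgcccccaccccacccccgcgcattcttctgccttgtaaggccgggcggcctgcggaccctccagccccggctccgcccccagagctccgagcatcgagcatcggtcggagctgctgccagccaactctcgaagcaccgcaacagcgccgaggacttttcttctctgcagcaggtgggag
The window is short, and a missing match says only that these letters are not within it.

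Cardiac muscle genes moved the other way. Of 23 measured genes 9 were higher (39.1%, against 4.46% of all genes) and 1 lower, with a median difference of 0.33. The higher count was 9 after quantile normalization, 8 after centring and 6 after cyclic loess normalization, where 2 were lower and the median was 0.25. The mean signal of the list was 6.07 to 6.11 in WT and 6.33 to 6.47 in D1D2KO. The median signal of all genes was 6.08, and the small rises lay mostly below it. Myh6, the alpha heavy chain of cardiac myosin, read 5.87, 5.50 and 5.59 in WT and 6.91, 6.98 and 6.85 in D1D2KO, a rise of 1.26 (SE 0.09, adjusted p = 2.79e-07). Actc1, cardiac alpha-actin, read 7.99, 8.13 and 7.78 in WT and 8.99, 9.43 and 9.14 in D1D2KO, a rise of 1.22 (SE 0.14, adjusted p = 4.39e-05). In both genes the lowest D1D2KO sample lay well above the highest WT sample. Nppa, the atrial natriuretic peptide, rose by 0.90 (SE 0.11) and the ventricular light chain Myl2 by 0.70 (SE 0.09). These 4 rises were called without any 1 sample as well. The other 5, among them Myl3 (0.43) and Mybpc3 (0.42), were not, and the count of 9 became 4 without WT replicate 1 and 5 without WT replicate 2 or D1D2KO replicate 1. The cardiac troponin T gene Tnnt2 went against the list, at 9.19, 9.35 and 9.11 in WT and 8.56, 8.71 and 8.48 in D1D2KO (-0.63, SE 0.10, adjusted p = 9.62e-04). The heart transcription factors Gata4, Tbx5, Tbx20, Hand1, Hand2 and Nkx2-5 were not called. Among 22 skeletal muscle genes 5 were higher (22.7%, against 4.46% of all genes) and none lower, the oxygen carrier Mb (0.47) and the troponin Tnni2 (0.46) most. The list is dim, with a mean signal of 5.02 to 5.11 in WT and 5.23 to 5.34 in D1D2KO. Both calls ended without WT replicate 1 or 2 or D1D2KO replicate 1 or 3, and none of the 5 calls held in every such fit. After quantile or cyclic loess normalization 1 of the 5 was left, and after centring 2.

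**Figure D2:**
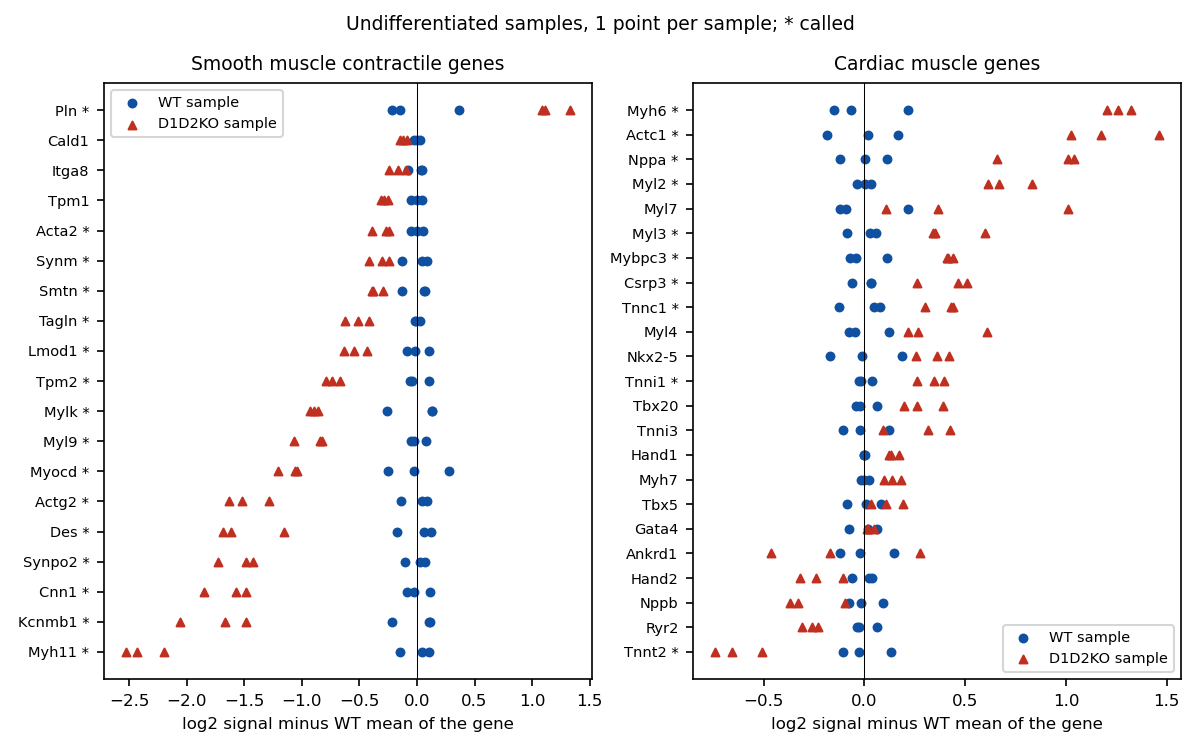
Log2 signal of each undifferentiated sample minus the WT mean of its gene, for 19 smooth muscle and 23 cardiac muscle genes, with circles for WT, triangles for D1D2KO and an asterisk for called genes. D1D2KO samples lie left of WT for 18 of the 19 smooth muscle genes by their means, Pln apart, while Myh6 and Actc1 lie furthest right among the cardiac genes.

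Genes induced by low oxygen were lower in D1D2KO. Hypoxia-inducible factors are stabilised when oxygen is scarce and raise glucose uptake, glycolysis and mitophagy genes. Of 22 measured hypoxia-inducible genes 16 were lower and none higher (72.7% lower, against 3.57% of all genes), with a median of -0.48. Of 17 glycolysis genes 11 were lower and none higher (64.7%), with a median of -0.41. The lists share Slc2a1, Ldha and Aldoc. The hypoxia count became 10 without WT replicate 2, and the glycolysis count 5 without WT replicate 2 or without D1D2KO replicate 3.

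The oxygen sensor and mitophagy genes led the first list. Egln3, a prolyl hydroxylase that marks hypoxia-inducible factors for destruction, read 7.87, 7.89 and 7.76 in WT and 6.37, 6.64 and 6.10 in D1D2KO, a difference of -1.47 (SE 0.12, adjusted p = 1.48e-06). Bnip3, a mitochondrial protein of mitophagy, read 9.26, 9.44 and 9.17 in WT and 7.98, 8.37 and 7.78 in D1D2KO, a difference of -1.25 (SE 0.12, adjusted p = 8.33e-06). In both genes replicate 2 was the highest and replicate 3 the lowest sample of each group, and the groups did not overlap. Higd1a, a mitochondrial protein (-0.93), the carbonic anhydrase Car9 (-0.88) and the growth factor Vegfa (-0.49) were also lower, each without any 1 sample too.

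Among the glycolytic genes the phosphofructokinases and the lactate exporter differed most. Pfkp, the platelet type of phosphofructokinase, read 8.73, 8.79 and 8.66 in WT and 7.77, 7.85 and 7.47 in D1D2KO, a difference of -1.03 (SE 0.12, adjusted p = 4.48e-05). Slc16a3, the lactate transporter MCT4, read 8.55, 8.82 and 8.56 in WT and 7.56, 7.92 and 7.43 in D1D2KO, a difference of -1.0 (SE 0.11, adjusted p = 3.01e-05). Pfkl, the liver type of phosphofructokinase, differed by -0.89 (SE 0.16), Tpi1, triosephosphate isomerase, by -0.68 and Ldha, lactate dehydrogenase A, by -0.54 (SE 0.10, adjusted p = 0.00454). All of these were called without any 1 sample. The glucose transporter Slc2a1 (-0.60, SE 0.13, adjusted p = 0.0107) lost its call without WT replicate 2 or D1D2KO replicate 3 (adjusted p up to 0.0714). The aldolase Aldoc, at 8.33, 8.47 and 8.43 in WT and 8.64, 8.61 and 8.55 in D1D2KO, was not called (0.19, adjusted p = 0.406).

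The core letters of the hypoxia response element, ACGTG or GCGTG on either strand with overlaps counted, were searched in the same promoter windows. They occurred in 25 of 31 promoters of 20 hypoxia-inducible genes (80.6%) and in 20 of 26 promoters of 16 glycolysis genes (76.9%), against 43.8% of all 32851 promoters. Base composition was not matched in this comparison. These lists gather genes by known function and the counts include genes that were not called. The shares therefore do not bear on the genotype difference. The promoters of Bnip3 with 5 matches, Pfkp with 4 and Egln3 with 1 are shown because these genes led their lists, with matches on either strand in capitals (RefSeq, GRCm38.p6).
Bnip3 promoter, chr7:138909457-138909756, minus strand: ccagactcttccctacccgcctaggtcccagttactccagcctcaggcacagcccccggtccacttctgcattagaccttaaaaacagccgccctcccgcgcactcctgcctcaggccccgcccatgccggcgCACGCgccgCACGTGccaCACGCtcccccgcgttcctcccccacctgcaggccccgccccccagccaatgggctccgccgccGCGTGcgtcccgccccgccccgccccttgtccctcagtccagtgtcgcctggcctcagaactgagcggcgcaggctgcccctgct
Pfkp promoter, chr13:6648722-6649021, minus strand: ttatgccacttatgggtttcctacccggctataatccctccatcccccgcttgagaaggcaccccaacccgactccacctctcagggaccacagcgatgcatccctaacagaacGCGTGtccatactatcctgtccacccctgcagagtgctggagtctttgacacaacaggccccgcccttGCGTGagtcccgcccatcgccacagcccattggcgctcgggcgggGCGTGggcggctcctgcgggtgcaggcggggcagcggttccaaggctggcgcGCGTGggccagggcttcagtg
Egln3 promoter, chr12:54203825-54204124, minus strand: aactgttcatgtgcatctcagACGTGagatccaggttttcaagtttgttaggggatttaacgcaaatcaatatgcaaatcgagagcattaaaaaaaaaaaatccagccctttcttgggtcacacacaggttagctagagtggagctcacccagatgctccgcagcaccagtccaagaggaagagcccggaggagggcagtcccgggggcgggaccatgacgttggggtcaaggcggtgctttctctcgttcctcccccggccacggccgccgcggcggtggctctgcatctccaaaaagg
The capitals in the Bnip3 promoter include a run in which matches of both strands overlap. Whether a factor binds there was not measured.

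**Figure D3:**
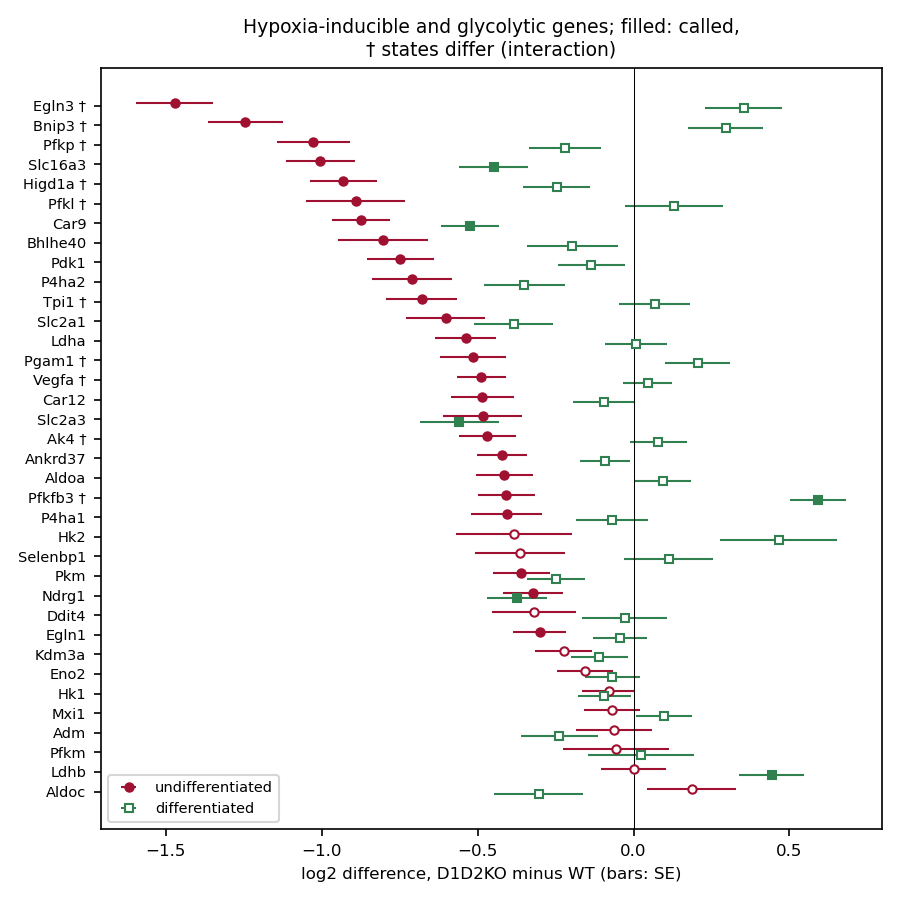
Genotype difference (log2, D1D2KO minus WT, bars are SE of the fit) of each hypoxia-inducible and glycolysis gene in undifferentiated (circles) and differentiated cells (squares), filled where called. In undifferentiated cells nearly all genes lie left of 0, led by Egln3 at -1.47, and in differentiated cells the squares scatter around 0.

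Some markers of mature adipocytes were lower in D1D2KO. Of 17 adipocyte markers 4 were lower (23.5%, against 3.57% of all genes) and 1 higher (5.88%, against 4.46%), and of 23 adipogenic regulators none was called. Fabp4, the fatty acid carrier of adipocytes, read 7.20, 7.31 and 6.91 in WT and 6.10, 5.73 and 6.0 in D1D2KO, a difference of -1.20 (SE 0.12, adjusted p = 8.83e-06). Adipoq, adiponectin, read 5.43, 5.46 and 5.12 in WT and 4.11, 4.59 and 4.41 in D1D2KO (-0.97, SE 0.12, adjusted p = 8.43e-05). Hp, haptoglobin, differed by -0.85 and Car3, a carbonic anhydrase, by -0.68. In these 4 genes the genotypes did not overlap, and each call held when any 1 sample was left out. The dim gene Lep, leptin, was higher (0.56), a call that ended without D1D2KO replicate 1 or 3 (adjusted p up to 0.0581). Pparg, the master regulator, read 6.28, 6.63 and 6.55 in WT and 6.48, 6.36 and 6.52 in D1D2KO, overlapping, with a difference of -0.03 (SE 0.10).

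Genes of lipid metabolism held few calls, set beside 4.46% of all genes higher and 3.57% lower. Of 19 lipid droplet genes 2 were higher and 1 lower, and of 20 fatty acid synthesis genes 1 was higher and 2 lower. Of 18 fatty acid uptake and activation genes 1 was higher and 1 lower. Among 14 genes of sterol esterification and neutral lipid hydrolysis 1 was lower. Of 17 cholesterol synthesis genes 1 was lower, and all 17 differences were negative (median -0.18). None of 17 triacylglycerol synthesis genes besides the targeted enzymes, 22 fatty acid oxidation genes or 24 respiratory chain and citric acid cycle genes was called, at medians of -0.08, -0.15 and -0.13. Besides Fabp4, the genes of the lipid lists whose calls held when any 1 sample was left out were Scd1, the stearoyl-CoA desaturase that makes monounsaturated fatty acids (-0.66, SE 0.09, adjusted p = 3.41e-04), and Mgll, the lipase that releases the last fatty acid from monoacylglycerol (-0.66, SE 0.10, adjusted p = 0.00108). Scd1 read 9.71, 9.56 and 9.39 in WT and 8.80, 8.97 and 8.89 in D1D2KO, without overlap. Plin2, the main coat protein of lipid droplets outside adipocytes, read 9.47, 9.45 and 9.44 in WT and 9.45, 9.37 and 9.25 in D1D2KO, overlapping (-0.09, SE 0.14). No member of the lists of phospholipid synthesis (20 measured), sphingolipid synthesis (21), the unfolded protein response (24), p53 and senescence (17) or interferon-stimulated genes (22) was called. With 8.04% of all genes called, lists of this size that hold no call lie near that share. A missing call does not show that these genes were equal, since the median SE over all genes was 0.10 log2 units.

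Retinoid genes were lower in part. Of 22 measured 6 were lower (27.3%, against 3.57% of all genes) and none higher. When any 1 sample was left out 3 of these calls held, against 1.11% of all genes. Aldh1a1, which makes retinoic acid, read 10.12, 10.12 and 10.11 in WT and 9.40, 9.39 and 9.36 in D1D2KO, a difference of -0.74 (SE 0.09, adjusted p = 6.29e-05). Rbp4, the retinol carrier, differed by -0.68 and Tgm2, a transglutaminase known as a retinoic acid target, by -0.57. The Aldh1a1 samples of a group were almost identical.

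Several lists of signalling and adhesion genes held calls in both directions. The genes named here are those whose calls held when any 1 sample was left out. Against 3.57% of all genes lower and 4.46% higher, 3 of 16 prostaglandin genes were lower and 1 higher, 5 of 34 growth factor genes lower and 3 higher, 3 of 37 TGF-beta and BMP genes lower and 1 higher, and 4 of 32 integrin and adhesion genes lower and 1 higher. Of 35 Wnt signalling genes 2 were lower and 5 higher, and none of these calls held in every such fit. The matrix lists held calls in 1 direction each, none in every such fit. Of 26 matrix collagen and glycoprotein genes 2 were higher, and of 27 matrix protease and inhibitor genes 3 were lower. Ptgs2, the inducible cyclooxygenase of prostaglandin synthesis, read 9.49, 9.69 and 9.37 in WT and 8.57, 8.88 and 8.19 in D1D2KO (-0.97, SE 0.14, adjusted p = 5.14e-04). Pla2g4a, which frees its substrate arachidonic acid, was lower as well (-0.61), and the prostaglandin receptor Ptger3 too (-0.49). Of the growth factor systems Igfbp2 (-0.68), which binds insulin-like growth factors, was lower beside Vegfa, and of the TGF-beta and BMP genes the latent TGF-beta binding protein Ltbp1 (-0.43) was lower beside Grem1. The integrins Itga1 (-0.66) and Itga5 (-0.64) and the laminin Lama5 (-0.67) were lower. Col10a1, the collagen of hypertrophic cartilage (-1.01), and Chad, a cartilage matrix protein (-0.87), were the lower ones of 18 bone and cartilage genes. In that list 3 genes were higher, none in every such fit, 14 of the 18 differences were positive and the median was 0.10. Metallothionein Mt2 (-0.63) and the glutathione transferases Gstm1 (-0.45) and Gstm2 (-0.50) were lower among 28 genes of oxidative stress, of which 4 were lower and none higher. Gstm1, Gstm2 and Gstm6 are similar in sequence, and their probe sets may read one another.

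Some cell cycle genes were lower by small amounts. Of 23 measured 8 were lower and none higher (34.8% lower, against 3.57% of all genes), and 1 call held when any 1 sample was left out. The list had a median of -0.29, and 22 of the 23 differences were negative. Top2a, the topoisomerase of dividing cells, read 9.11, 9.23 and 9.06 in WT and 8.72, 8.71 and 8.54 in D1D2KO (-0.48, SE 0.09, adjusted p = 0.00600). The mitotic kinase genes Bub1 (-0.50), Plk1 (-0.49) and Cdk1 (-0.39) were lower with all samples, but not without WT replicate 2 or D1D2KO replicate 3. The count of 8 was 1 without WT replicate 2 or D1D2KO replicate 3, 4 without D1D2KO replicate 1, 5 without WT replicate 1 and 4 after quantile normalization.

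Markers of other cell types that such cultures may hold were examined beside these groups, against 3.57% of all genes lower and 4.46% higher. Of 19 macrophage markers 2 were lower, the integrin Itgam (-0.63) and the scavenger receptor Msr1 (-0.34). The Msr1 call held only without D1D2KO replicate 2 among the fits that leave out 1 sample (adjusted p up to 0.207). The mean signal of the list was 9.02 to 9.12 in WT and 8.98 to 9.03 in D1D2KO. Of 16 endothelial markers 3 were higher, with the receptor Tek (0.58) called without any 1 sample, and 2 lower. The count of 3 was 1 after centring, quantile or cyclic loess normalization. The mean signals were 5.25 to 5.32 in WT and 5.38 to 5.40 in D1D2KO. Of 18 neural and glial markers 2 were higher and 2 lower, of 16 epithelial markers 1 each, and of 13 liver and blood genes none was called. The means of the smooth muscle list were 8.91 to 9.07 in WT and 8.10 to 8.27 in D1D2KO. The part of a change in cell makeup in any result here was not tested.

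Genes near the targeted loci were examined in the order of measured genes on their chromosomes. Within 20 measured genes on either side of Dgat2 on chromosome 7, 6 of 40 genes were called (15.0%, against 8.04% of all), 5 of them lower. These were Kctd14 (-0.61), Aamdc (-0.56), the unconventional myosin Myo7a (-0.55), the small nucleolar RNA Snord15a (-0.52) and Uvrag, a regulator of autophagy (-0.30). Uvrag is the measured gene next to Dgat2 on 1 side, and Mogat2 (-0.21, not called) is that on the other. Tpbgl was higher (0.39). Called differences over 0.5 log2 units made up 4 of the 40 (10.0%) and 1.62% of all genes. The calls of Myo7a and Snord15a held without any 1 sample, that of Kctd14 ended without D1D2KO replicate 3, and that of Aamdc without this sample or WT replicate 2. The Uvrag call ended without any 1 of the 6 samples, and the Tpbgl call without any but WT replicate 3. Within 100 genes on either side 28 of 200 were called (14%), 18 lower and 10 higher. On the whole chromosome 172 of 1738 were called (9.90%), 67 lower and 105 higher. Around Dgat1 on chromosome 15 only 2 of 40 genes were called, Tssk5 (0.42) and the zinc transporter Slc39a4 (0.32), both higher, whose calls ended without WT replicate 1 or 2 or D1D2KO replicate 1, and 14 of 200 within 100 genes on either side (7.0%). The lipid transfer protein Stard10 (0.81), 42 measured genes from Dgat2, was higher, the folate receptor Folr2 (-0.82), 50 genes away, was lower, and Trim12a and Trim30d lay 162 and 165 genes away. Stard10 read 6.75, 6.93 and 6.84 in WT and 7.65, 7.55 and 7.78 in D1D2KO. Far from Dgat1 some called differences were large as well. Aard (-1.55) and Colec10 (-1.525), 151 and 145 measured genes away, were lower, and so was Cthrc1 (-0.78), 183 away. Mov10l1 (0.66), 211 away, was higher. On the whole of chromosome 15, 54 of 752 genes were called (7.18%), 25 lower and 29 higher. The part of the targeted loci in these differences was not tested.

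**Figure D4:**
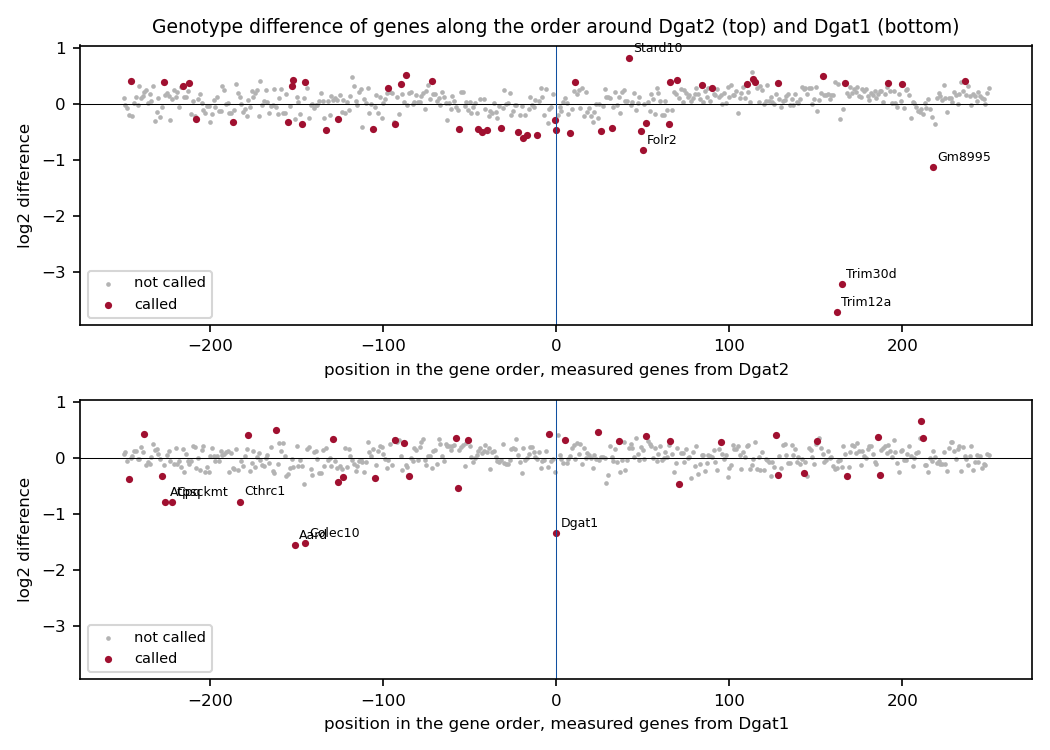
Log2 difference, D1D2KO minus WT, of genes within 250 measured genes of Dgat2 (top) and Dgat1 (bottom) against their place in the gene order, with called genes in dark red and those beyond 0.7 named. Of the 6 called genes within 20 measured genes of Dgat2, 5 are lower, and Trim12a and Trim30d stand 162 and 165 genes from it at differences of -3.72 and -3.22. Aard and Colec10 stand 151 and 145 genes from Dgat1 at -1.55 and -1.525.

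The genotype difference was last set beside that in differentiated cells, which shares no sample with it. In differentiated cells 2636 genes (13.8%) were called, 1218 higher (6.36%) and 1418 lower (7.4%) in D1D2KO. Of the 1540 undifferentiated calls 562 were called in the same direction there (36.5% of these calls and 21.3% of the differentiated ones) and 22 in the opposite direction. A test of the change in the genotype difference between the states (interaction) called 281 genes (1.47%), of which 113 were among the 1540. Of the 55 genes that differed at least 2-fold, 44 were called in the same direction in differentiated cells, and 23 had an interaction, 20 with a larger difference in undifferentiated cells. Actg2, Cnn1 and Des had a larger one in differentiated cells. Smooth muscle genes were lower in both states, 15 of 19 and then 17 of 19, with medians of -0.73 and -1.08.

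Some oxygen, glycolysis and adipocyte genes had an interaction, and most members of these lists did not pass that test. Of 22 hypoxia-inducible genes 2 were lower in differentiated cells (median -0.09), and 5 of the list had an interaction, all with a more negative difference in undifferentiated cells. For glycolysis 2 were lower and 2 higher (median 0.01), and 5 had an interaction in the same sense. Of 17 adipocyte markers 5 had an interaction, also with a more negative difference in undifferentiated cells, against 1.47% of all genes in either sense. Egln3 differed by -1.47 in undifferentiated and by 0.35 (adjusted p = 0.0669) in differentiated cells, and the states differed by -1.82 (interaction adjusted p = 1.03e-04). Fabp4 differed by -1.20 and then by 0.26, with an interaction of -1.45 (adjusted p = 4.52e-04), and F13a1 by -1.59 and then by 0.18, with an interaction of -1.77 (adjusted p = 7.81e-04). For Trim12a the differences were -3.72 and -3.52, for Myh11 -2.39 and -2.50, and for Grem1 -2.38 and -2.10. None of the interactions of these 3 genes was called, with adjusted p = 0.77, 0.86 and 0.71.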

How the data were processed

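RNA of 12 cultures was hybridised to single-colour arrays. The deposited values, between 1.15 and 14.17, were taken as log2 signals made by the authors; the base was inferred from their range, and the sources used here give neither the summary and normalization methods nor detection calls. Of 35556 probe sets 21789 named 1 gene. Where a gene had several probe sets (999 genes), that of highest mean signal was kept, and no gene was removed for low signal. All 12 samples entered limma 3.58.1 (R 4.3.3; lmFit and eBayes, two-sided) as 4 group means, with the Benjamini-Hochberg adjustment over 19938 genes and calls at an adjusted p under 0.05. The fit was tested on simulated data with 200 changed genes and independent noise in each gene. These data held no shift shared by the genes of an array, so the test does not cover such shifts. The number of arrays limits the precision. RefSeq (GRCm38.p6) gave gene order, promoters and microRNAs.

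The members and the 47 gene lists were chosen with earlier results of these data known. Named genes are Dgat1 and Dgat2, the 15 largest falls and some of the largest rises among non-overlapping calls. Up to 4 called and 2 uncalled genes per list were also named, and called genes within 20 measured genes of either target. Some large called rises were not described, among them Gdpd3 (0.88) and Crxos (0.70). Other genes were named after their values were seen. Alternatives were centring, quantile and cyclic loess normalization, a signal filter, other uses of probe sets, other variance priors, array weights, stricter thresholds, only the 6 undifferentiated samples, removal of X and Y genes before adjustment, leaving out each sample and a block for the replicate number. Cyclic loess was added after the data were seen.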

Additional observations from a re-analysis of the deposited data

Results flagged for a closer look

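These genes have a genotype difference that changed between the undifferentiated and differentiated states by the interaction test of limma (adjusted p under 0.05). Values are the undifferentiated minus the differentiated difference in log2 units, so a negative value is a more negative D1D2KO minus WT difference in undifferentiated cells.

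Among the genes with oxygen and glucose roles the value was -1.82 for Egln3, -1.54 for Bnip3, -1.18 for Ndufa4l2, -1.02 for Pfkl, -0.81 for Pfkp, -0.75 for Tpi1, -0.68 for Higd1a and -0.53 for Vegfa. Among adipocyte, lipid and retinoid genes it was -1.45 for Fabp4, -1.38 for Adipoq, -0.92 for Car3, -0.89 for Hp, -0.88 for Mgll and -0.74 for Rbp4, while the targeted gene Dgat2 stood at 1.20. For smooth muscle genes the sign was the opposite, with 0.92 for Des, 0.90 for Actg2, 0.88 for Myl9, 0.79 for Cnn1, 0.79 for Tpm1, 0.77 for Tagln, 0.57 for Cald1 and 0.52 for Acta2, so their loss in D1D2KO was larger in differentiated cells.

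The others were F13a1 at -1.77, Pcp4 at -1.45, Mir490 at -1.37, its host gene Chrm2 at -1.22, Mab21l2 at -0.95, Chad at -0.84, Tnnt2 at -0.75, Nnat at -0.73 and Col10a1 at -0.72. On the positive side stood Ptgs2 at 1.20, Nppa at 0.94, Itga5 at 0.81 and Igfbp2 at 0.66. Nppa was higher in D1D2KO before differentiation and differed by -0.04 after it, and Ptgs2 was lower in D1D2KO in both states.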

How the results depend on the processing

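Among the 85 named called genes followed here, no difference changed sign under any alternative run. The uncalled difference of Pparg, close to 0, did so without WT replicate 2. The 1540 calls became 4067 with array weights, 2489 with only the 6 samples, 842 among genes above the median signal, 818 with cyclic loess, 805 with quantile normalization, 345 at an adjusted p under 0.01 and 55 with a 2-fold minimum, and 325 to 1804 without 1 sample. Higher genes (855) became 2479, 1367, 199, 257, 355, 101 and 4 in that order, 421 after centring, and 95 to 1154 without 1 sample. Lower genes (685) became 1588 with array weights, 1122 with only the 6 samples, 450 after quantile normalization, 244 at the stricter threshold, 51 with the 2-fold minimum and 230 to 650 without 1 sample. Called list members (157, summed over lists) became 293 with array weights, 241 with only the 6 samples and 65 to 153 without 1 sample.

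Cardiac genes higher (9) became 14 with array weights and 4 to 10 without 1 sample. Hypoxia-inducible genes lower (16) became 10 to 14, glycolysis genes (11) 5 to 11 and smooth muscle genes (15) 11 to 14 without 1 sample. Cell cycle genes (8) became 16 with array weights, 15 with only the 6 samples, 4 after quantile normalization and 1 to 9 without 1 sample. Dgat2 lost its call at -0.50 after quantile normalization, -0.41 after cyclic loess and -0.49 to -0.45 without 1 sample. Interactions (281) became 515 above the median signal and 456 with a trended prior, and shared calls (562) became 314 and 336 under quantile and loess normalization. The causes were not tested. With the replicate number as a block 1851 genes were called, 1071 of them higher. Deviations of samples with equal numbers correlated at -0.0146, 0.1838 and 0.1414. Replicates 2 and 3 of both genotypes correlated best with their own number, and replicate 1 of neither did. The labels name no pairing, and the number was not taken to pair samples in the main fit. An effect shared by samples of equal number therefore remains possible. Of the 85 named called genes followed here 18 lost their call without some sample. Without detection calls, dim signals cannot be told from background.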
